A study of Mus musculus with 7 samples.

Results

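The glutathione transferases and the enzymes that make, recycle, use and break down glutathione were followed in the liver of Trpm6-deficient mice. The set was drawn up by gene symbol as 39 genes, the transferases of the alpha, mu, pi, theta, omega, zeta, kappa and microsomal classes together with the genes of glutathione synthesis, peroxidases, breakdown and the glyoxalases, and 36 of them had a probe set. The array held 35556 probe sets and named 19938 genes by a probe set of their own. The 3 mutant livers came from Trpm6-deficient mice (Trpm6 Δ17/Δ17;Sox2-Cre), in which an exon of Trpm6, a Mg2+ channel kinase gene, is deleted. By the cross of the study, 1 deleted allele is inherited from the father. The floxed allele of the mother is cut by a Cre that the Sox2 promoter drives in the epiblast, and it is spared in extraembryonic tissue. The 4 control livers came from Trpm6 fl/+ littermates, which are given with 1 floxed allele and without Cre, so that the deletion and the Cre cannot be told apart. All 7 mice were males on a C57BL/6 background, and RNA of a piece of the left lobe was hybridised to 1 array per mouse. Mutants 1 and 3 were 13 weeks old and mutant 2 was 12 weeks old, against 13 weeks for controls 3 and 4 and 12 weeks for controls 1 and 2. In such bulk tissue, fewer cells of a type and less RNA per cell cannot be told apart.

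Glutathione is a tripeptide of glutamate, cysteine and glycine that liver cells hold at high concentration as a scavenger of electrophiles and a source of reducing power. The transferases join it to reactive compounds, which are then exported and trimmed to mercapturic acids, while the peroxidases spend it on peroxides and glutathione reductase restores it with NADPH. The cytosolic transferases are grouped into classes by sequence, and the genes of a class often lie side by side, whereas the microsomal transferases belong to a separate family of membrane enzymes.

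Values are log2 expression after robust multi-array averaging (RMA), so that a difference of 1 is a doubling, and each change is the mean of the mutants minus the mean of the controls. A probe set was called when its p from limma, after Benjamini-Hochberg adjustment over the 35556 probe sets, was 0.1 or less, the threshold in the methods of the study. Where a gene had more than 1 probe set, the one with the higher mean over the 7 arrays was used. Of the 36 genes, 2 rose and 1 fell at this threshold, beside 0.0759% of all probe sets that rose and 0.0534% that fell. At a nominal p, that is an unadjusted p, up to 0.05, 11 were higher and 3 were lower, beside 3.85% and 3.03% of all probe sets. The 3 mutants lay above all 4 controls for 7 genes and below all 4 for 3, beside 2.94% and 2.38% of all probe sets. Gstp1 and Gstp2 were among the 3 lower genes in both of these counts. Gstp2, counted as the 1 gene that fell, was read only by probe sets that also name Gstp1, so these genes are not separate measurements. With 1 probe set per gene, 3.59% of 19938 genes were higher at a nominal p up to 0.05. The median size of a change, whatever its sign, was 0.26 for the 36 genes and 0.08 for all probe sets. Without mutant 2 the genes higher at a nominal p up to 0.05 numbered 5, and without mutant 1 those lower numbered 5.

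The 21 transferases held all 3 calls, beside 0.0759% of all probe sets that rose and 0.0534% that fell. At a nominal p up to 0.05, 10 were higher and 2 were lower, beside 3.85% and 3.03% of all probe sets. Their median change was 0.30. Of the other 15 genes 0 passed limma's adjusted test, 1 was higher and 1 was lower at a nominal p up to 0.05, and the median change was -0.05. The difference between these groups of genes was not tested.

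**Figure D1:**
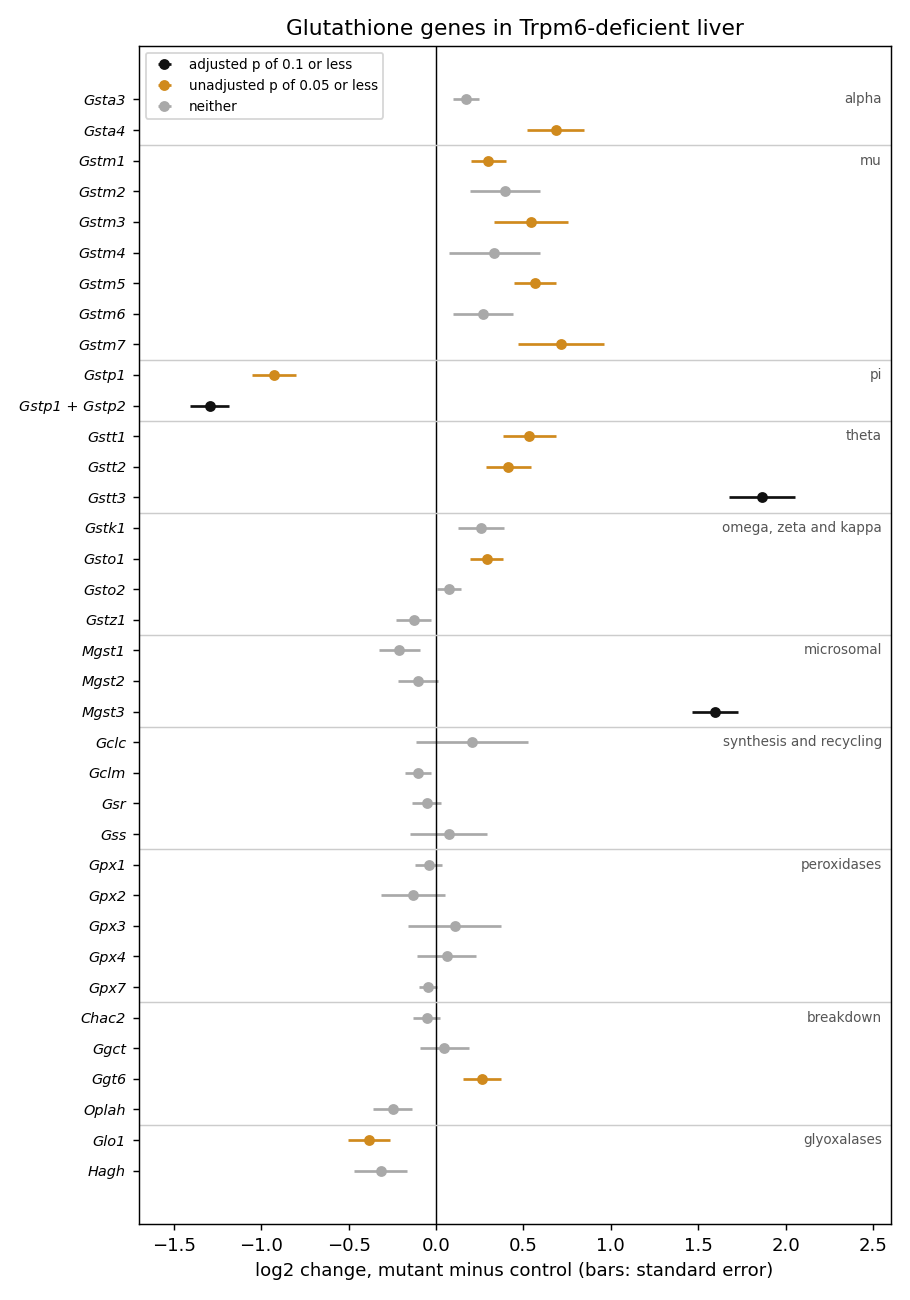
Log2 change (mutant minus control, n = 3 and 4 livers) of the 36 genes with a probe set, by class, with bars for limma's standard error and colours for the threshold passed. Gstt3 and Mgst3 lie farthest to the right at 1.86 and 1.60, and the 2 pi-class probe sets farthest to the left at -0.93 and -1.29.

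The targeted gene did not separate the groups. Trpm6 stood at 5.50, 5.37 and 5.50 in mutants 1 to 3, against 5.53, 5.51, 5.50 and 5.50 in controls 1 to 4 (log2 change -0.05, standard error 0.05, adjusted p = 0.882 from limma). The array medians lay between 6.43 and 6.48, and which exons the probe set reads was not examined. The values of 8 hepatocyte markers averaged 13.77 to 13.78 in the mutants and 13.66 to 13.82 in the controls. The 6 Kupffer cell markers averaged 8.62 to 8.73 in the mutants and 8.36 to 9.29 in the controls, and the 6 markers of sinusoidal endothelium 9.27 to 9.71 in the mutants and 9.06 to 10.06 in the controls. Control 1 was the lowest liver in both of these lists. The 5 cholangiocyte markers averaged 6.46 to 6.59 in the mutants and 6.40 to 6.46 in the controls, the 6 stellate cell markers 9.16 to 9.30 in the mutants and 9.03 to 9.25 in the controls, and the 5 leukocyte markers 6.16 to 6.20 in the mutants and 6.15 to 6.46 in the controls. Of 5 erythroid markers 2 were measured, averaging 7.86 to 8.41 in the mutants and 8.80 to 9.00 in the controls. Alas2, the erythroid heme synthesis gene, had a change of -1.66 (adjusted p = 0.192 from limma). The other, Slc4a1, had a change of -0.006 (adjusted p = 0.992), so the lower average came from Alas2 alone. RMA values have no zero and came without detection calls, no marker was called by limma's adjusted test, and the part of these lists in the results was not tested.

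All 3 theta-class genes had the mutants above the controls with no overlap, beside 2.94% of all probe sets, and Gstt3 rose. Gstt3, a theta-class transferase gene, stood at 11.04, 11.77 and 11.63 in mutants 1 to 3, against 9.52, 9.49, 9.59 and 9.86 in controls 1 to 4. The lowest mutant was thus more than 1 log2 unit above the highest control. Gstt3 rose 3.64-fold, a log2 change of 1.86 with a standard error of 0.19 and an adjusted p of 0.0697 in limma's fit. Gstt1, which acts on small halogenated compounds, stood at 12.35, 12.77 and 12.71 in the mutants, against 11.78, 12.12, 12.12 and 12.28 in the controls. Its change was 0.53 (standard error 0.15, unadjusted p = 0.0107, adjusted p = 0.554), and the gap between mutant 1 and control 4 was small beside the spread within each group. Gstt2 stood at 8.87, 8.93 and 8.80 in the mutants, against 8.45, 8.73, 8.47 and 8.16 in the controls (change 0.41, standard error 0.13, unadjusted p = 0.0170). Leaving out 1 liver at a time kept the change of Gstt3 between 1.72 and 2.09, but its adjusted p ran from 0.0279 to 0.287, and the call was kept without mutant 1 but lost without mutant 2 or 3 or any 1 of the controls. With age as a covariate the adjusted p was 0.169, and within age the difference was 2.27 at 12 weeks, where there was 1 mutant, and 1.61 at 13 weeks.

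Of the microsomal transferases, Mgst3 rose and the others did not pass. Mgst3, a membrane enzyme with transferase and peroxidase activity, stood at 9.35, 9.16 and 9.52 in mutants 1 to 3, against 8.02, 7.68, 7.70 and 7.59 in controls 1 to 4. The groups were apart by more than the range within either, and control 1 was the highest control. The change was 1.60 (standard error 0.13, adjusted p = 0.0400), which is 3.02-fold. Leaving out 1 liver at a time kept it between 1.51 and 1.69 with an adjusted p of 0.0602 to 0.229, the call being lost without mutant 3 or without control 2, 3 or 4, and with age as a covariate the adjusted p was 0.129. Within age the difference was 1.31 at 12 weeks and 1.79 at 13 weeks. Mgst1, the abundant detoxifying enzyme of the endoplasmic reticulum, stood at 13.58, 13.47 and 13.15 in the mutants, against 13.77, 13.58, 13.55 and 13.54 in the controls (change -0.21, standard error 0.12, unadjusted p = 0.118). Mgst2 lay between 5.82 and 5.84 in the mutants, below the array medians, and between 5.82 and 6.25 in the controls.

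**Figure D2:**
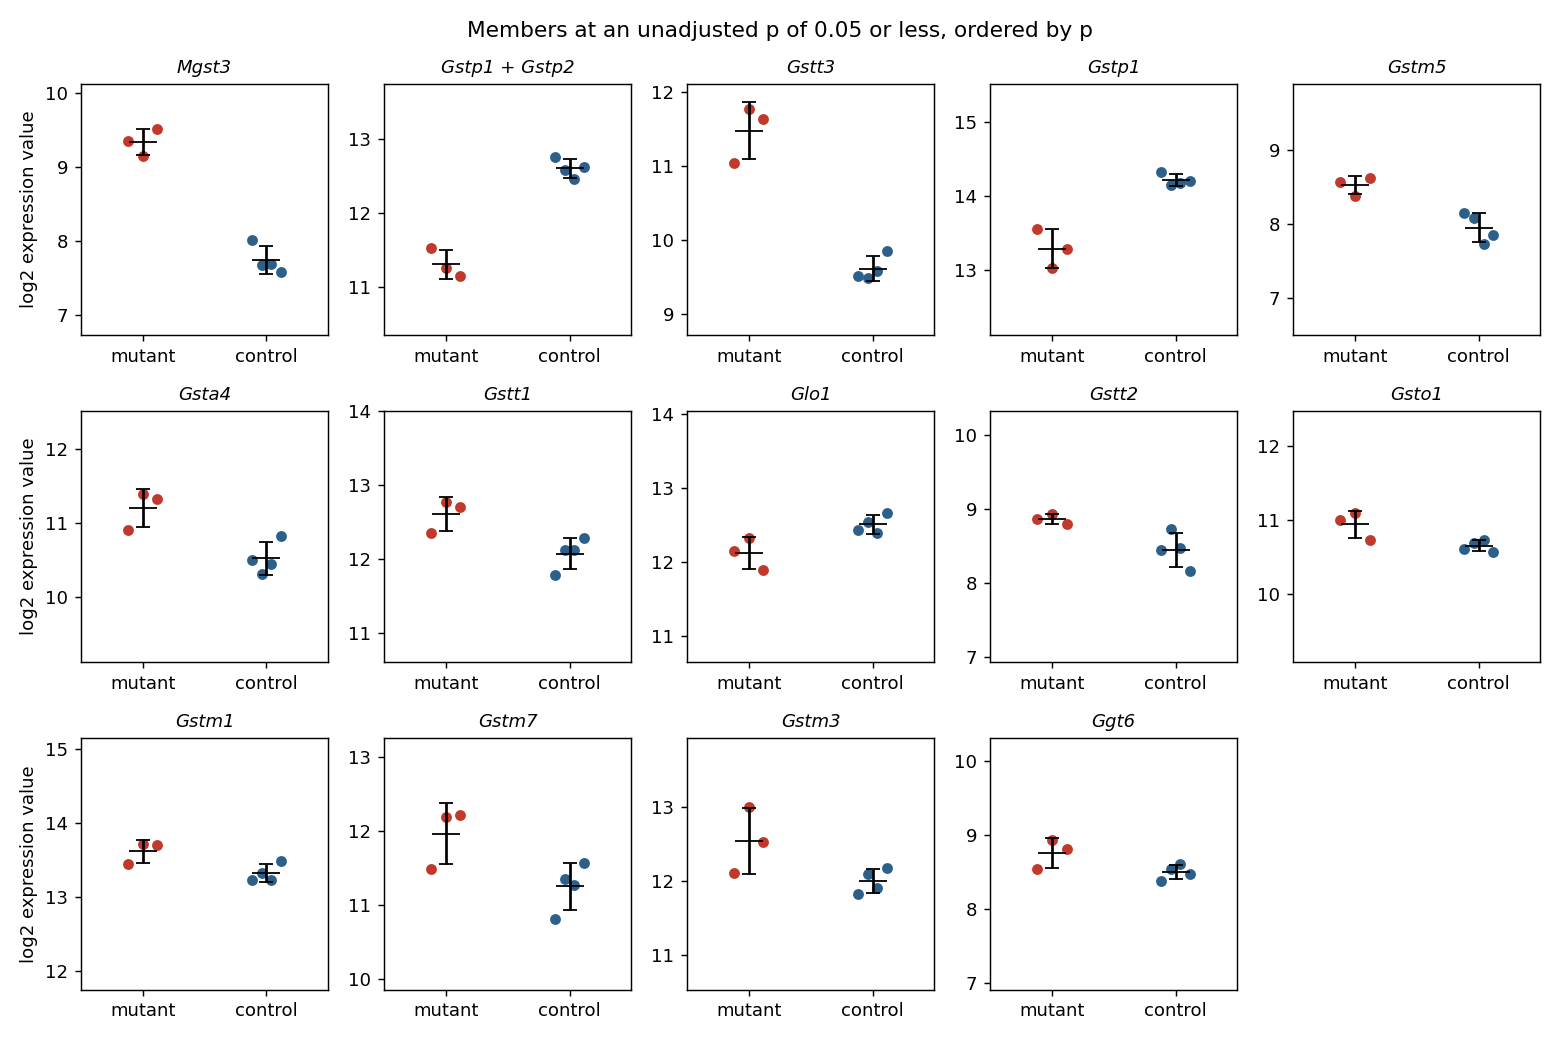
Log2 expression of single members, with 1 point per liver (mutant, n = 3, left of control, n = 4 in each panel), a line at each group mean and bars for the SD. The mutants sit above the controls for Gstt3 (11.04 to 11.77 against 9.49 to 9.86) and Mgst3 (9.16 to 9.52 against 7.59 to 8.02), and below them for both pi-class probe sets.

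In the pi class the expression was lower in the mutants, and the probe sets that name both of its genes fell. These 2 genes, Gstp1 and Gstp2, lie next to each other on chromosome 19 and are so alike that a probe set can read both, so their shares of the signal are uncertain. The promoters are shown because these probe sets read both genes and fell, and the windows are much alike. Each runs from 250 bases before the start of the gene to 50 after it on the minus strand (RefSeq, build GRCm38.p6), at chr19:4037863-4038162 for Gstp1 and chr19:4042172-4042471 for Gstp2. The capitals mark the heptamer TGAGTCA, the binding motif of the AP-1 family.
Gstp1: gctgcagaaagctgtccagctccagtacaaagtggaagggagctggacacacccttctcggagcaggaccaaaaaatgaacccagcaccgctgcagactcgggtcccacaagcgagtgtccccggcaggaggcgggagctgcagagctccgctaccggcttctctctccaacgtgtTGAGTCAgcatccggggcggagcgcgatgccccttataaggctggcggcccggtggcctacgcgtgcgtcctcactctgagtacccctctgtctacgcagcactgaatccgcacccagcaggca
Gstp2: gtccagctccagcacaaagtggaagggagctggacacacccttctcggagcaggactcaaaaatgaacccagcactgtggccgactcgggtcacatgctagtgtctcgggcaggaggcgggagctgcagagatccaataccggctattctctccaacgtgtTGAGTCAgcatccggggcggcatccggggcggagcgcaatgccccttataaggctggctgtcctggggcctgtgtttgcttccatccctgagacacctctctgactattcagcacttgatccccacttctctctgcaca
When the windows were aligned, 246 of 281 paired bases were identical (87.5%). The heptamer begins 74 bases before the start of Gstp1 and 89 before that of Gstp2.

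The brightest probe set that names both Gstp1 and Gstp2 stood at 11.52, 11.25 and 11.14 in mutants 1 to 3, against 12.75, 12.58, 12.45 and 12.61 in controls 1 to 4. Each mutant was below each control by at least 0.9 log2 units. It fell by 1.29 (standard error 0.11, adjusted p = 0.0428 from limma), to 0.408 of the control level. A second probe set that names both genes stood at 11.29, 11.02 and 10.88 in the mutants, against 12.51, 12.37, 12.20 and 12.35 in the controls, and fell by 1.29 as well (standard error 0.12, adjusted p = 0.0487). The probe set that names Gstp1 alone stood at 13.56, 13.03 and 13.28 in the mutants, against 14.33, 14.15, 14.18 and 14.20 in the controls. Its change was -0.93 (standard error 0.13, unadjusted p = 0.000228, adjusted p = 0.129), which missed the threshold although the groups did not overlap. Without mutant 1 its adjusted p was 0.0586. For the first probe set, leaving out 1 liver kept the change between -1.40 and -1.21 with an adjusted p of 0.0318 to 0.191, the call being kept without mutant 1 but lost without any other liver, and with age as a covariate the adjusted p was 0.131. Its difference was -1.42 at 12 weeks and -1.20 at 13 weeks.

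The 7 genes of the mu class, whose promoters span 149.5 kb of chromosome 3, each had a positive change, as did 17879 of 35556 probe sets. Of the 7, 4 reached a nominal p of 0.05 with a higher value, beside 3.85% of all probe sets. Whether the probe sets of these neighbouring genes read one another was not examined, so the 7 changes may not be separate measurements. None of the 7 was called by limma's adjusted test. Gstm5, a mu-class transferase gene, stood at 8.56, 8.38 and 8.61 in mutants 1 to 3, against 8.15, 8.07, 7.73 and 7.84 in controls 1 to 4. It was the only gene of the class whose groups did not overlap (change 0.57, standard error 0.12, unadjusted p = 0.00261, adjusted p = 0.366). Gstm7 stood at 11.49, 12.19 and 12.22 in the mutants, against 10.81, 11.36, 11.27 and 11.57 in the controls (change 0.71, standard error 0.24, unadjusted p = 0.0247). Gstm3 stood at 12.11, 13.00 and 12.53 in the mutants, against 11.83, 12.10, 11.91 and 12.18 in the controls, with mutant 1 below control 4 (change 0.54, standard error 0.21, unadjusted p = 0.0396). Its other probe set had a change of 0.97 (standard error 0.35, adjusted p = 0.672). Gstm1, a main transferase of mouse liver, stood at 13.44, 13.72 and 13.70 in the mutants, against 13.23, 13.33, 13.23 and 13.49 in the controls, with mutant 1 below control 4 (change 0.30, standard error 0.10, unadjusted p = 0.0213). The changes of Gstm2, Gstm4 and Gstm6 were 0.39, 0.33 and 0.27, with overlapping groups. Without mutant 2 they were 0.16, 0.10 and 0.09, and that of Gstm3 was 0.32, while without mutant 1 those of Gstm2, Gstm4 and Gstm6 were 0.61, 0.62 and 0.41. Without mutant 2 or without mutant 3, Gstm1, Gstm3 and Gstm7 no longer reached a nominal p of 0.05, and Gstm5 still did, with a change of 0.50 to 0.64 when any 1 liver was left out. When each gene was set against its control mean and averaged over the class, mutants 1 to 3 stood at 0.11, 0.72 and 0.50, against -0.11, 0.07, -0.11 and 0.15 in controls 1 to 4. Mutant 1 thus lay within the range of the controls, whereas for the theta class the mutants stood at 0.71, 1.11 and 1.00 and the controls between -0.13 and 0.07.

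**Figure D3:**
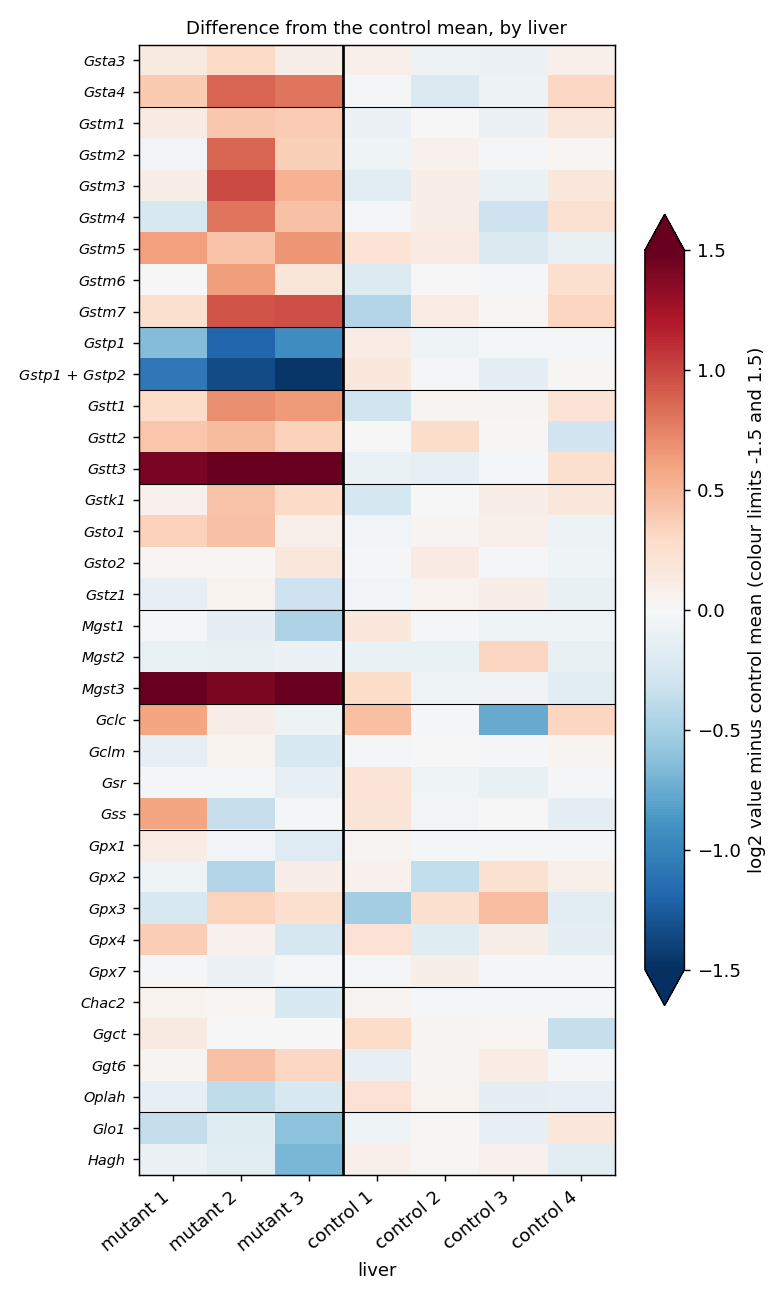
Each gene's log2 value in each liver minus its control mean, by class, for mutants 1 to 3 to the left of controls 1 to 4. In the mean of the mu class mutant 1 is closer to the controls than mutants 2 and 3 (0.11, 0.72 and 0.50), with Gstm5 an exception.

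In the alpha class, Gsta4, whose enzyme clears 4-hydroxynonenal from lipid peroxidation, stood at 10.91, 11.39 and 11.32 in mutants 1 to 3, against 10.50, 10.31, 10.45 and 10.83 in controls 1 to 4. The mutants lay above the controls, with control 4 close to mutant 1 (change 0.68, standard error 0.16, unadjusted p = 0.00490, adjusted p = 0.429). Gsta3, a main alpha transferase of mouse liver, stood at 13.30, 13.46 and 13.25 in the mutants, against 13.24, 13.09, 13.08 and 13.24 in the controls. These groups were apart by 0.01, and the change of 0.17 had an unadjusted p of 0.0575. Gsta1 and Gsta2 had no probe set of their own. The 4 probe sets that name Gsta1 and Gsta2 along with the predicted genes Gm10639 and Gm3776 had changes of 1.06 to 1.14 and adjusted p-values of 0.428 to 0.437. In the brightest of them mutants 1 to 3 stood at 10.66, 11.56 and 10.85, against 10.40, 9.52, 9.85 and 9.76 in controls 1 to 4, so that control 1 came within 0.26 of mutant 1.

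**Figure D4:**
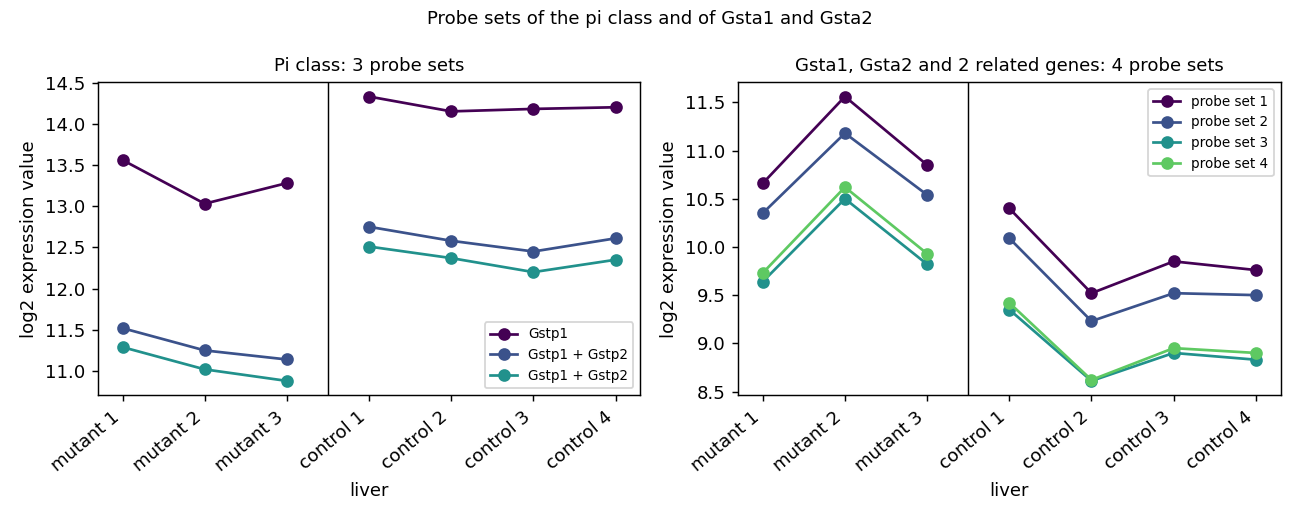
Log2 expression of the pi-class probe sets and of those that name Gsta1 and Gsta2, with 1 point per liver (mutant, n = 3, left of control, n = 4) and lines joining the points of a probe set within a group. The pi probe sets are lower in all 3 mutants, and the alpha probe sets are higher, with control 1 the highest control.

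Among the omega, zeta and kappa transferases, Gsto1, whose enzyme reduces dehydroascorbate, stood at 11.00, 11.09 and 10.73 in mutants 1 to 3, against 10.61, 10.69, 10.73 and 10.57 in controls 1 to 4. Mutant 3 and control 3 had the same value (change 0.29, standard error 0.10, unadjusted p = 0.0210, adjusted p = 0.641). Gstk1, a transferase of mitochondria and peroxisomes, stood at 12.61, 12.97 and 12.83 in the mutants, against 12.28, 12.55, 12.64 and 12.71 in the controls (change 0.26, unadjusted p = 0.0910). Gstz1, an enzyme of tyrosine breakdown, had a change of -0.13 and Gsto2 one of 0.07. Gsto2 had a mean of 5.82 over the 7 arrays, below the array medians.

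None of the 4 genes of glutathione synthesis and recycling or of the 5 peroxidase genes reached a nominal p of 0.05. Of all probe sets 3.85% were higher and 3.03% lower at that p. With so few genes, a count of 0 lies near those shares. Gclc, the catalytic subunit of the rate-limiting glutamate-cysteine ligase, stood at 12.85, 12.36 and 12.18 in the mutants, against 12.71, 12.23, 11.50 and 12.58 in the controls (change 0.21, standard error 0.32). Control 3 was the lowest liver, and without it the change was -0.04. Gclm, its regulatory subunit, had a change of -0.10, Gss, which adds glycine, one of 0.07, and Gsr, glutathione reductase, one of -0.05. Gpx1, the main cytosolic peroxidase, stood at 13.42, 13.27 and 13.12 in the mutants, against 13.35, 13.30, 13.30 and 13.30 in the controls, where the mutants lay on both sides of the controls (change -0.04). The changes of Gpx2, Gpx3, Gpx4 and Gpx7 ran from -0.13 to 0.11. Gpx2 and Gpx7 had means of 6.10 and 6.25 over the 7 arrays, below the array medians, so their small changes say little.

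In the breakdown of glutathione, Ggt6, a gamma-glutamyltransferase family gene, stood at 8.54, 8.94 and 8.81 in the mutants, against 8.38, 8.54, 8.61 and 8.47 in the controls (change 0.26, standard error 0.11, unadjusted p = 0.0466, adjusted p = 0.718). Mutant 1 lay below control 3. Oplah, which turns 5-oxoproline into glutamate, stood at 10.18, 9.92 and 10.06 in the mutants, against 10.52, 10.35, 10.15 and 10.18 in the controls (change -0.25, unadjusted p = 0.0651). Ggct and Chac2, enzymes that cleave gamma-glutamyl bonds, had changes of 0.05 and -0.05. Glo1, which with glutathione turns methylglyoxal into lactoylglutathione, stood at 12.15, 12.33 and 11.90 in the mutants, against 12.44, 12.54, 12.39 and 12.67 in the controls. The groups were apart by 0.06, and the change was -0.38 (standard error 0.12, unadjusted p = 0.0158, adjusted p = 0.613). Its other probe set also had a change of -0.38. Hagh, which releases lactate from that product, stood at 12.20, 12.12 and 11.61 in the mutants, against 12.37, 12.31, 12.36 and 12.13 in the controls (change -0.32, unadjusted p = 0.0804). Ggt1 had no probe set under the rule.

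The livers did not share these changes evenly. For the 14 genes with a nominal p up to 0.05, mutant 2 stood farthest from the control mean in 9 and mutant 3 in 5, while mutant 1 stood nearest to it in 9. The median distance from the control mean was 0.37 in mutant 1, 0.78 in mutant 2 and 0.65 in mutant 3. Among genes outside these 14, the changes of Mgst1 and Hagh were -0.085 and -0.13 without mutant 3, and that of Gsta3 was 0.11 without mutant 2. The 14 genes were chosen for their difference between the groups, so the order of the livers is a description.

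Genes that supply cysteine and NADPH, use glutathione in other ways, export conjugates or regulate the transferases were listed beside them, and none of the measured genes in these 4 lists was called by limma's adjusted test. Of 19 measured genes of cysteine and NADPH supply 4 were higher and none lower at a nominal p up to 0.05, beside 3.85% higher and 3.03% lower among all probe sets, and their median change was 0.15, beside 0.00 for all probe sets. Cth, which makes cysteine from cystathionine, stood at 13.21, 13.24 and 13.10 in mutants 1 to 3, against 12.75, 12.48, 12.59 and 12.59 in controls 1 to 4 (change 0.58, standard error 0.08, adjusted p = 0.119). Idh2, a mitochondrial NADPH source, stood at 11.68, 11.66 and 11.63 in the mutants, against 11.26, 11.01, 10.97 and 11.02 in the controls (change 0.59, standard error 0.08, adjusted p = 0.119). Both genes had all mutants above all controls. Nnt, the mitochondrial transhydrogenase, and Mat1a, which makes S-adenosylmethionine in liver, had changes of 0.31 and 0.28 (adjusted p = 0.429 and 0.385).

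Of 27 measured genes linked to glutathione in other ways, 2 were higher and 3 were lower at a nominal p up to 0.05, beside 3.85% and 3.03% of all probe sets. Nat8, which completes mercapturic acids by N-acetylation, stood at 8.50, 7.98 and 7.86 in the mutants, against 9.43, 9.56, 9.77 and 10.05 in the controls, with no overlap (change -1.59, standard error 0.21, adjusted p = 0.119). Of 11 measured export genes 1 was higher and 1 was lower, beside the same shares of 3.85% and 3.03%. Abcg2, an efflux pump of the canalicular membrane, stood at 8.48, 8.08 and 8.32 in the mutants, against 9.38, 9.44, 8.92 and 9.01 in the controls, again with no overlap (change -0.89, standard error 0.17, adjusted p = 0.270).

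Of 19 measured regulators 2 were higher and 2 were lower at a nominal p up to 0.05, beside 3.85% and 3.03% of all probe sets. Nr1i3, the constitutive androstane receptor of xenobiotic sensing, stood at 10.86, 10.54 and 11.02 in the mutants, against 9.93, 9.49, 10.27 and 10.08 in the controls (change 0.86, standard error 0.21, adjusted p = 0.429). Bach1, a repressor at antioxidant response elements, stood at 8.94, 9.04 and 8.92 in the mutants, against 9.18, 9.20, 9.26 and 9.36 in the controls (change -0.28, standard error 0.06, adjusted p = 0.384). For both, the groups did not overlap. Nfe2l2, which encodes the activator NRF2 of the same elements, had a change of 0.03 (standard error 0.23), and Keap1, its inhibitor, one of 0.12 (standard error 0.06).

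Of the 39 genes, 34 had at least 1 promoter window in RefSeq, searched on both strands. Some genes, such as Ggt1, had several windows, and a gene was counted when any of them held the motif. Genes with more windows thus had more chances to be counted. The core of the antioxidant response element, TGACNNNGC, was in 8 of the 34 (23.5%), beside 14.0% of 27025 genes and 12.4% of their 32851 windows. These 8 were Gsta3, Gstm5, Gstm7, Mgst1, Gclm, Ggt1, Ggct and Hagh. The motif TTCNNNGAA of the STAT5 factors was in 4 (11.8%), beside 9.55% of genes. The heptamer TGAGTCA, looked up after the pi-class windows had been seen, was in 4 (11.8%), those of Gstm5, Gstp1, Gstp2 and Mgst2, beside 5.95% of genes. In both pi-class windows it is followed by GC, and TGAGTCAGC differs from the searched core TGACNNNGC only in having G for C. Variants of the core were not searched, so the 8 genes above leave them out. The windows of Gstt3 and Mgst3 held none of these 3 motifs, which says only that the letters were not in the window.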

How the data were processed

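Liver RNA of 3 mutant and 4 control mice, grouped by the labels, was measured on Affymetrix Mouse Gene 1.0 ST arrays. The authors corrected, normalized and summarized the arrays by RMA in Affymetrix Expression Console 1.4.0 and deposited log2 values with 2 decimals, without detection calls, and precision is limited by how many arrays there were. Probe sets were named by the platform annotation (21789 probe sets with 1 symbol, 1621 with several, 12146 with none), and Gstp2 was read only by probe sets that also name Gstp1. The deposited values were fitted with limma 3.58.1 in R 4.3.3 (lmFit and eBayes, no covariate), as in the methods of the study, after tests on simulated data. Values are given per liver for genes with an adjusted p of 0.1 or less, a nominal (unadjusted) p up to 0.05 or groups without overlap, for the brightest of each remaining class, and, in other lists, for genes with an unadjusted p of 0.01 or less. The members and lists were chosen with earlier results of these data known. The alternatives were other normalizations, filters, probe set rules and thresholds, age, a replicate block, an ordinary t-test and leaving out each liver. The methods of the study name a t-test for their wider list without giving its kind. Differences within age were added after seeing the data. Nothing says how many litters the mice came from.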

Additional observations from a re-analysis of the deposited data

Results flagged for a closer look

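In the 4 controls, 1 liver stood apart from the others for 5 of the 36 genes by Dixon's test. Chance flags about 1 in 20 groups of unrounded values, but these values have 2 decimals. For Gpx1, Gpx7 and Chac2 the other controls were tied, so any gap was flagged and that rate does not apply. Mgst2 was at 6.25 in control 3 and between 5.82 and 5.83 in the others. Gclm was at 12.13 in control 4 and between 12.07 and 12.08 in the others, Gpx1 at 13.35 in control 1 and 13.30 in the others, Gpx7 at 6.36 in control 2 and 6.24 in the others, and Chac2 at 10.09 in control 1 and 10.04 in the others. Apart from Mgst2, these gaps were 0.12 or smaller on the log2 scale.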

How the results depend on the processing

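The counts of called genes, 2 higher and 1 lower, were the same with limma's trend and robust options, median centring and the mean of all probe sets of a gene. With quantile normalization, a minimum mean of 5, or only probe sets with a gene symbol, 2 were higher and 2 lower. At an adjusted p of 0.05, 1 was higher and 1 lower. With age as a covariate 0 and 0 were called (10 and 3 at a nominal p up to 0.05). With an ordinary t-test of pooled variance after Benjamini-Hochberg 0 and 0 were called (9 and 3). With the replicate block 0 and 0 were called (12 and 4). The median change was then 0.052, against 0.092 in the fit without it, and Ggct was at -0.067. No mutant carries the number 4, so control 4 dropped out of these changes. They equal those without control 4, as for the median of 0.052, and are not a separate result. The deviations of same-numbered arrays from their group means correlated at 0.335, 0.260 and 0.0878. Mutants 1 and 2 correlated best with the control of the same number, and mutant 3 with control 4 (0.226). What the number stands for is not given, and whether the samples are paired was not tested. Leaving out 1 liver gave 0 to 2 called higher, 0 to 2 lower, 5 to 13 higher and 3 to 5 lower at a nominal p up to 0.05, and medians of 0.052 to 0.171. Of 576 changes of single genes under these settings, 535 kept direction and side of the adjusted threshold of 0.1. Most of the 576 belonged to genes without a call to lose, so 535 does not measure how firm the 3 calls are. In 25 the change fell short of it, and all 25 belonged to the 3 called genes, the only ones that could lose a call. Another 4 passed it anew and 12 changed sign, none of these 12 for a gene with a nominal p up to 0.05. Those that changed sign when 1 liver was left out ranged from -0.140 to 0.003 for Mgst2, -0.043 to 0.360 for Gclc, -0.190 to 0.280 for Gss, -0.090 to 0.013 for Gsr, -0.118 to 0.032 for Gpx1, -0.257 to 0.020 for Gpx2, -0.067 to 0.285 for Gpx3, -0.092 to 0.218 for Gpx4, -0.067 to 0.137 for Ggct and -0.102 to 0.038 for Chac2. The cause was not tested.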
